A study of Mus musculus with 10 samples.

Results

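The genes examined here encode sensors of bacterial cell wall fragments, cytosolic DNA and cell damage, together with the proteins that carry out pyroptosis, an inflammatory form of cell death. The 10 genes were picked by symbol as a pathway group, with earlier results of these data known, and each matched 1 of the 43432 features in the deposited count matrix. They were *Nod1*, *Nod2*, *Ripk2*, *Nlrp3*, *Aim2*, *Pycard*, *Casp1*, *Casp4*, *Gsdmd* and *Nlrc5*. Of these 10, 9 passed the filter on low counts and were tested among 14172 features, and *Pycard* did not pass it.

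Expression was measured by RNA-seq in RAW264.7 cells, an established mouse macrophage line. The cells were given lipopolysaccharide (LPS), a bacterial membrane component that activates Toll-like receptor 4, with or without compound 1, a fatty acid with an enone (a ketone conjugated with a double bond) that was isolated from a marine cyanobacterial mat. There were 5 conditions with 2 libraries each. The first held cells with the solvent DMSO at 0.5% and no LPS, the second cells with DMSO at 0.5% and LPS at 1 µg/mL, and the remaining conditions cells with compound 1 at 3.2, 10 or 32 µM and the same LPS. Compound or solvent preceded LPS by 1 h, and RNA was taken at 12 h. No condition held compound 1 without LPS. Whether the 2 libraries of a condition came from separate cultures was not stated, so the spread between them may be technical. Library totals were between 45966803 and 58976377 counts. All 8 macrophage markers examined were expressed in every library, from 15.5 to 55.7 counts per 1000000 (CPM) for *Fcgr1* up to 2585 to 6841 CPM for *Lyz2*, and T cell markers did not exceed 0.0699 CPM in any library. The 4 fibroblast markers summed to 4.43 CPM in replicate 1 at 10 µM and to 0.0510 to 0.798 CPM in the others. Ribosomal RNA features took 2.83% of counts in replicate 2 at 32 µM and 0.153% to 0.333% in the others. Epithelial transcripts were present in replicate 1 at 10 µM and, at a lower level, in replicate 1 at 3.2 µM, as given below with *Pycard*.

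As background, NOD1 and NOD2 are cytosolic receptors for fragments of bacterial peptidoglycan and signal through the kinase RIPK2 to NF-κB. Inflammasomes are built in steps: a priming signal such as LPS raises the transcripts of the sensor NLRP3 and of pro-interleukin-1β, and a further signal then makes a sensor, for example NLRP3 or the DNA receptor AIM2, recruit caspase-1 through the adaptor ASC, the product of *Pycard*. Caspase-1 matures interleukin-1β and interleukin-18, and both caspase-1 and caspase-11, the product of mouse *Casp4* and itself a receptor for intracellular LPS, cleave gasdermin D, which forms the membrane pores of pyroptosis. The RAW264.7 line is known to lack ASC. NLRC5 belongs to the same NLR family and is known chiefly as a transcriptional activator of MHC class I genes. Transcript levels, as measured here, say nothing of cleavage, assembly or pore formation.

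*Casp1* and *Casp4* lie beside each other on mouse chromosome 9 and were reported on the same strand, with 1562 bases between the end of *Casp1* (GRCm38, chr9:5298517-5307265, + strand) and the start of *Casp4* (chr9:5308828-5336783, + strand). Their promoters are shown because these neighbouring genes had unlike log2 fold changes with LPS (given below, their difference not tested), and that of *Nlrp3* (chr11:59541568-59566956, + strand) because it had the highest level per length under LPS. Each sequence covers 250 bases before to 50 after a RefSeq start site (GRCm38.p6), 5′ to 3′ on the + strand, at chr9:5308599-5308898 for *Casp4*, chr9:5298267-5298566 for *Casp1* and chr11:59541319-59541618 for *Nlrp3*, and capitals mark matches to the NF-κB consensus on either strand.
Casp4: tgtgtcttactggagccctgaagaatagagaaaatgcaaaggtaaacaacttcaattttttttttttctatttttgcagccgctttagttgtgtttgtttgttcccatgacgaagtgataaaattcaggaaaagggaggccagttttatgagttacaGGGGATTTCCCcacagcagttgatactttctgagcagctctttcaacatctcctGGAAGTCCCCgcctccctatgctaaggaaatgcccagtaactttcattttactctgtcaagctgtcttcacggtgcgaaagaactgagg
Casp1: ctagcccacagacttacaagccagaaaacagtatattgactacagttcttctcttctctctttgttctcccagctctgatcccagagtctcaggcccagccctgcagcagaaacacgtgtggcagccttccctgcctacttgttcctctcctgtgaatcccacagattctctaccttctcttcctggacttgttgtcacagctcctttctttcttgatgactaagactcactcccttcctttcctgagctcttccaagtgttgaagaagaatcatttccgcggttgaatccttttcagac
Nlrp3: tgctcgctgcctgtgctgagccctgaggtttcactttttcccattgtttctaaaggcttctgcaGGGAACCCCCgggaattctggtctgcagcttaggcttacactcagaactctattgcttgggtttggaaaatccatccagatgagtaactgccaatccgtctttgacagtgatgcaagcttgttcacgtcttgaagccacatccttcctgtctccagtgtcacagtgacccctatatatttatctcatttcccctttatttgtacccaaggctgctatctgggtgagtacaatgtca
The *Casp4* window held 3 matches to the NF-κB consensus, of which those at −93 to −84 and −92 to −83 from the start site overlap and the last lay at −39 to −30. The *Nlrp3* window held 1, at −186 to −177, and the *Casp1* window held none. RefSeq promoters were at hand for 7 of the 10 genes, in 10 windows. Those of *Nod2*, *Aim2* and *Pycard* and the other *Nlrp3* window held no match, and 1 of the *Nod1* windows held a STAT site, TTCNNNGAA, at −193 to −185. The other *Casp4* window (chr9:5308610-5308909) held the same 3 NF-κB matches, at −104 to −95, −103 to −94 and −50 to −41 from its own start site. No window held the interferon response element core, searched as GAAA, 2 bases of any kind and GAAA. For scale, among 32851 RefSeq promoters of this length, 8.46% held the NF-κB consensus, 8.3% the STAT site and 3.44% the interferon response element core. These matches are letters in a window and were not tested as binding sites.

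The first comparison asked what LPS alone did, with DMSO + LPS set against DMSO. Of the 9 genes tested, 8 rose and *Aim2* did not pass the test. A gene was called changed when the fold was at least 1.5 and the adjusted p below 0.05 in edgeR's quasi-likelihood test, and in this comparison 28.1% of all features tested were called and 14.6% of all were called higher. The median log2 fold change of the 9 genes was 1.91, against 0.0026 over all features. Since the values are shares of a library's RNA, more transcript per cell and a larger part of the cells expressing a gene cannot be told apart. The values below are CPM scaled by the trimmed mean of M-values (TMM), with replicate 1 before replicate 2.

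Both receptors for peptidoglycan fragments rose from low levels. *Nod1* (chr6:54923949-54972612, − strand) was at 0.799 and 0.476 CPM in DMSO and at 6.08 and 5.52 CPM in DMSO + LPS. The DMSO values rested on 47 and 27 counts. *Nod1* rose by 3.18 ± 0.22 (SE) on the log2 scale (edgeR adjusted p = 8.39e-06). *Nod2* (chr8:88647315-88688474, + strand) was at 6.14 and 5.004 CPM in DMSO and at 35.2 and 33.8 CPM with LPS, a rise of 2.63 ± 0.097 on the log2 scale (edgeR adjusted p = 2.33e-07). Their shared kinase *Ripk2* (chr4:16122733-16163647, − strand) went from 24.6 and 26.7 CPM to 98.1 and 95.04 CPM, a log2 fold change of 1.91 ± 0.052 (edgeR adjusted p = 4.4e-08). For all 3 genes the lower DMSO + LPS library was above the higher DMSO library, as it was for 38.2% of all features tested.

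The inflammasome sensors split. *Nlrp3* was at 64.9 and 70.1 CPM in DMSO and at 582 and 568 CPM in DMSO + LPS, and rose by 3.09 ± 0.052 on the log2 scale (edgeR adjusted p = 4.35e-09). *Aim2* (chr1:173350879-173466040, + strand) was at 77.3 and 84.7 CPM in DMSO and at 83.3 and 86.4 CPM in DMSO + LPS, so that the libraries of the 2 conditions overlapped. Its log2 fold change was 0.067, with a 95% interval of −0.11 to 0.25 (edgeR adjusted p = 0.516). The interval excludes a change of 1.5-fold in either direction. Without TMM scaling, where the median of all features was −0.20 in this comparison, the *Aim2* value was −0.14.

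The 2 neighbouring inflammatory caspases both rose, but by different amounts. *Casp1* was at 76.5 and 90.9 CPM in DMSO and at 179 and 173 CPM with LPS, a rise of 1.07 on the log2 scale with a 95% interval of 0.83 to 1.31 (edgeR adjusted p = 6.47e-05). *Casp4* went from 8.15 and 8.46 CPM to 98.4 and 98.3 CPM, a change of 3.57 on the log2 scale with a 95% interval of 3.45 to 3.68 (edgeR adjusted p = 2.22e-09). This was the highest estimate of the 9, but the 95% interval of *Nod1*, 2.66 to 3.69, took in that of *Casp4*. The difference between *Casp1* and *Casp4* was not itself tested. Their substrate *Gsdmd* (chr15:75862327-75867408, + strand) rose from 56.7 and 57.5 CPM to 124 and 128 CPM, a log2 fold change of 1.14 ± 0.074 (edgeR adjusted p = 5.59e-06). *Nlrc5* (chr8:94434356-94527272, + strand) rose from 20.3 and 21.3 CPM to 74.6 and 68.9 CPM, a log2 fold change of 1.79 ± 0.11 (edgeR adjusted p = 3.87e-06). The *Nlrc5* exons share 78 bases with an antisense gene, *9330175E14Rik*, and whether counting used strand was not stated.

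**Figure D1:**
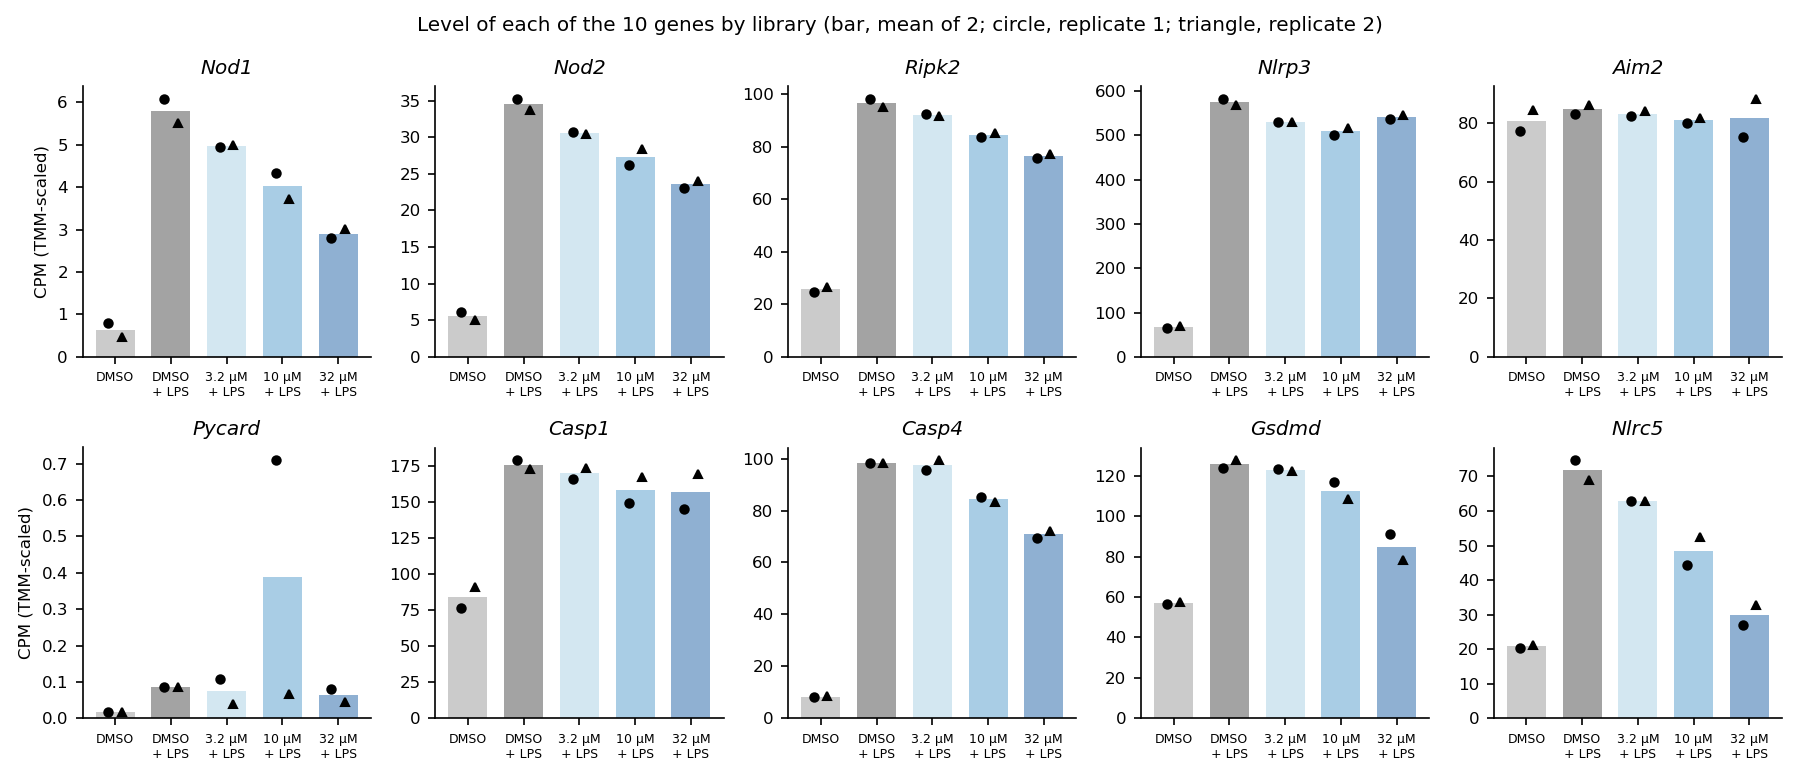
Level of each of the 10 genes in TMM-scaled CPM (linear axis from 0, a scale of its own in each panel) in the 5 conditions. Bars are means of 2 libraries, circles replicate 1 and triangles replicate 2. All genes but *Aim2* stand higher in both DMSO + LPS libraries than in DMSO with no overlap (38.2% of all features tested did so), *Pycard* on 1 to 5 counts and untested, and *Nlrc5* steps down with dose from 74.6 and 68.9 CPM to 27.0 and 32.8 CPM.

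Divided by the length of the gene's exons, levels can be set side by side, within a limit. The length was that of all annotated exons of a gene together, 1497 bases for *Casp1* (1 transcript) and 3710 for *Casp4* (7 transcripts). Which transcripts the cells used was not measured, and close orders, such as that of *Aim2* and *Casp4*, depend on this choice. Overlap of libraries, given below, does not cover it. In DMSO the order of mean CPM per kb was *Casp1* (55.9), *Gsdmd* (24.0), *Aim2* (23.1), *Nlrp3* (16.6), *Ripk2* (9.11), *Nlrc5* (2.45), *Casp4* (2.24), *Nod2* (1.11), *Nod1* (0.126) and *Pycard* (0.00456). *Gsdmd* and *Aim2* could not be separated there, as the *Aim2* libraries spanned 22.1 to 24.2 CPM per kb and the *Gsdmd* libraries 23.8 to 24.2. In DMSO + LPS *Nlrp3* led at 142 CPM per kb, followed by *Casp1* (117), *Gsdmd* (52.9), *Ripk2* (34.3), *Casp4* (26.5), *Aim2* (24.2), *Nlrc5* (8.45), *Nod2* (6.88), *Nod1* (1.14) and *Pycard* (0.0227), with no overlap between libraries of neighbours in the order. *Casp4* thus stood below *Aim2* in both DMSO libraries and above it in both DMSO + LPS libraries. At 32 µM *Nlrp3* (134 CPM per kb) and *Casp1* (105) still led, *Aim2* (23.4) was again above *Casp4* (19.1), and *Nod2* (4.70) was above *Nlrc5* (3.52). At 10 µM the libraries of *Aim2* and *Casp4* overlapped, as did those of *Nlrc5* and *Nod2*.

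*Pycard* (chr7:127989708-127993867, − strand), which encodes ASC, was near 0. It had 1 to 5 counts in each of 9 libraries and 33 counts in replicate 1 at 10 µM, 60 in all. Those 33 counts came to 0.709 CPM. In that library the epithelial markers *Epcam*, *Krt8*, *Krt18* and *Cdh1* summed to 1777 counts, in replicate 1 at 3.2 µM to 268, and in each of the other 8 libraries to 0 to 5. The part of these transcripts in the *Pycard* counts was not tested. *Pycard* exons also share 485 bases with an antisense gene, *Gm45205*. No fold change is given for *Pycard*, as its counts are at or near 3 in most libraries.

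The next comparisons asked what compound 1 did to the LPS response, with each dose set against the same 2 DMSO + LPS libraries. At 32 µM 2 of the 9 genes tested were called, *Nlrc5* and *Nod1*, and both fell. In this comparison 4.17% of all features were called and 2.91% of all were called lower. A further 4 genes, *Nod2*, *Ripk2*, *Casp4* and *Gsdmd*, were lower with an adjusted p below 0.05 but by less than 1.5-fold, so 6 of 9 passed the p threshold alone in the lower direction, against 5.72% of all features. The 3 genes that passed neither threshold were *Nlrp3*, *Aim2* and *Casp1*. The median log2 fold change of the 9 genes was −0.47, against 0.0082 over all features.

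*Nlrc5*, the MHC class I activator, had the largest decrease of the 9. It was at 27.0 and 32.8 CPM at 32 µM, at 44.5 and 52.3 CPM at 10 µM and at 63.0 and 62.9 CPM at 3.2 µM. Both libraries at each dose were below both libraries of the dose beneath it, and both at 3.2 µM were below both DMSO + LPS libraries. Of all features tested, 16.5% did so between 32 and 10 µM, 16.8% between 10 and 3.2 µM and 21.5% between 3.2 µM and DMSO + LPS. Of the 9 genes, 6, 8 and 6 did so, and neighbouring steps share libraries. *Nlrc5* fell by 1.26 ± 0.11 (SE) on the log2 scale at 32 µM (edgeR adjusted p = 0.000202), and the call held in every alternative run, with adjusted p-values up to 0.00377. At 10 µM its log2 fold change was −0.57 ± 0.11 (edgeR adjusted p = 0.034), just short of the 1.5-fold threshold, and at 3.2 µM −0.19 ± 0.11 (edgeR adjusted p = 0.999). With the 2 doses set against each other, *Nlrc5* was lower at 32 than at 10 µM by a log2 fold change of −0.70 ± 0.11 (edgeR adjusted p = 0.0134), the only one of the 9 genes called, where 1.32% of all features were. That call ended when replicate 2 at 10 µM was dropped (−0.57, adjusted p = 0.0394), when replicate 1 at 32 µM was dropped (−0.56, adjusted p = 0.0731) and in a fit of the 4 libraries alone (adjusted p = 0.29).

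Both peptidoglycan receptors and their kinase were lower at 32 µM, *Nod1* past the fold threshold. *Nod1* was at 2.80 and 3.01 CPM at 32 µM, at 4.34 and 3.72 CPM at 10 µM and at 4.94 and 4.99 CPM at 3.2 µM. It fell by 1.00 ± 0.20 on the log2 scale at 32 µM (edgeR adjusted p = 0.0162). The *Nod1* call needed all 4 libraries. Dropping replicate 1 or 2 of DMSO + LPS gave adjusted p-values of 0.126 and 0.0744, and dropping replicate 1 or 2 at 32 µM gave 0.0905 and 0.0697. *Nod2* was at 23.1 and 24.1 CPM at 32 µM, with a log2 fold change of −0.55 and a 95% interval of −0.76 to −0.34 (edgeR adjusted p = 0.00625, and up to 0.0646 over the alternatives). *Ripk2* was at 75.7 and 77.2 CPM, a log2 fold change of −0.34 with a 95% interval of −0.45 to −0.22 (edgeR adjusted p = 0.0039).

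Among the inflammasome sensors, *Nlrp3* was at 538 and 547 CPM at 32 µM, below both DMSO + LPS libraries by a small margin. Its log2 fold change was −0.084, with a 95% interval of −0.20 to 0.027 (edgeR adjusted p = 0.377), which excludes a decrease of 1.5-fold. *Aim2* was at 75.5 and 88.4 CPM, on both sides of its DMSO + LPS libraries, with a log2 fold change of −0.050 and a 95% interval of −0.23 to 0.13 (edgeR adjusted p = 0.812). *Casp1*, the effector both sensors share, was at 145 and 169 CPM, with a log2 fold change of −0.16 and a 95% interval of −0.40 to 0.077 (edgeR adjusted p = 0.439). The 2 libraries at 32 µM differed in *Casp1* by more than those of DMSO + LPS did.

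*Casp4* and *Gsdmd* passed the p threshold at 32 µM but not the fold threshold. *Casp4* was at 69.3 and 72.3 CPM at 32 µM, a log2 fold change of −0.47 with a 95% interval of −0.58 to −0.37 (edgeR adjusted p = 0.000378). *Gsdmd* was at 91.2 and 78.1 CPM, a log2 fold change of −0.57 with a 95% interval of −0.74 to −0.40 (edgeR adjusted p = 0.00197). *Gsdmd* lay so near the 1.5-fold threshold that it was called with replicate 1 at 32 µM dropped (−0.69), with replicate 1 of DMSO + LPS dropped (−0.59) and with no filter on low counts (−0.59). The ribosomal RNA share of replicate 2 at 32 µM, given above, moved with the lower of the 2 *Gsdmd* values, and its part was not tested. Against 10 µM, *Gsdmd* at 32 µM had a log2 fold change of −0.41 (edgeR adjusted p = 0.0263) and *Casp4* one of −0.25 (edgeR adjusted p = 0.0271), both under 1.5-fold. Neither held the p threshold over all alternatives, with adjusted p-values of up to 0.447 for *Gsdmd* and 0.448 for *Casp4* in the fit of the 4 libraries alone. *Gsdmd* lost it with replicate 1 at 10 µM (0.112) or replicate 2 at 32 µM (0.0979) dropped, and *Casp4* with any 1 of the 4 libraries dropped (0.0578 to 0.203).

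At 10 µM none of the 9 genes was called by edgeR, where 0.861% of all features were, while 6 had an unadjusted p below 0.05, as did 12.1% of all features, and 2, *Casp4* and *Nlrc5*, an adjusted p below 0.05 in the lower direction, against 1.7% of all features. The *Casp4* libraries were at 85.1 and 83.5 CPM, a log2 fold change of −0.22 with a 95% interval of −0.33 to −0.12 (edgeR adjusted p = 0.0473, and up to 0.315 over the alternatives). For *Nlrc5* the adjusted p reached 0.297 over the alternatives, and it was called without replicate 2 at 10 µM (−0.71) and with no filter on low counts (−0.59). Log2 fold changes of the 9 genes lay between −0.57 and −0.065, with a median of −0.19. All 9 genes had both 10 µM libraries below both DMSO + LPS libraries, as did 17.9% of all features tested.

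At 3.2 µM edgeR called none of the 9 genes and 0% of all features. Of the 9, 1 had an unadjusted p below 0.05 (as did 4.23% of all features), *Nlrp3* at 531 and 530 CPM with a log2 fold change of −0.12 (edgeR adjusted p = 0.999), and DESeq2's Wald test also called 0 of them. Log2 fold changes lay between −0.22 and −0.013, with a median of −0.071. Between 10 and 3.2 µM edgeR called 0 of the 9, where 0.254% of features were called, and 3 had an unadjusted p below 0.05, as did 8.38% of all features. Since every dose was compared with the same 2 DMSO + LPS libraries, the shared sign over doses is not independent evidence.

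**Figure D2:**
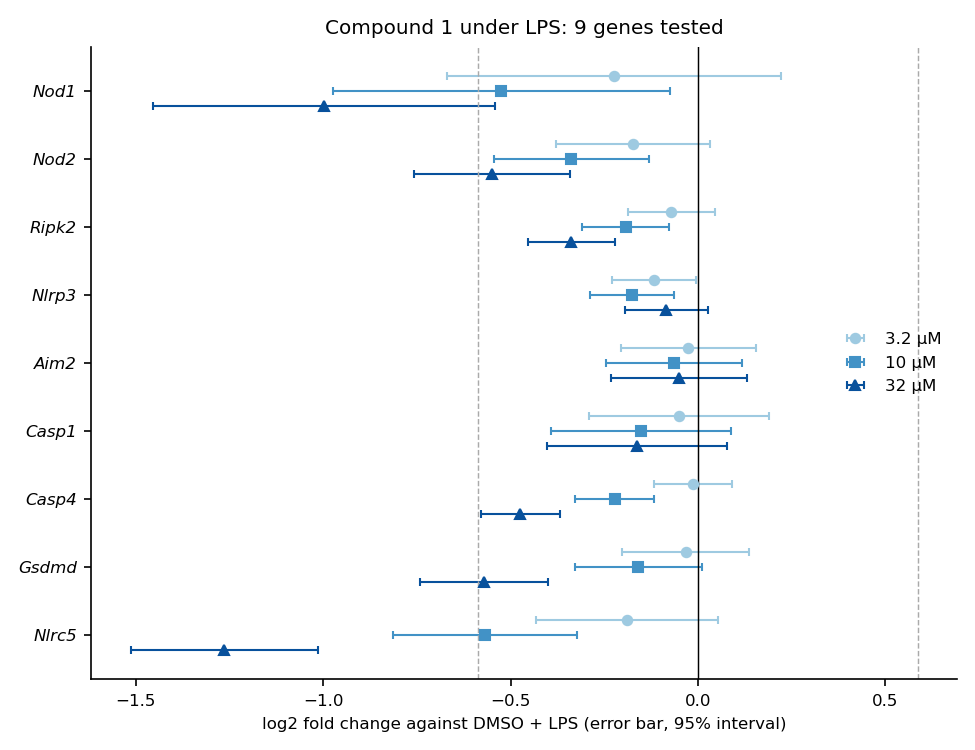
Log2 fold change of the 9 genes tested at 3.2 µM (circles), 10 µM (squares) and 32 µM (triangles) of compound 1 with LPS against DMSO + LPS, with 95% intervals from edgeR. Dashed lines mark a fold of 1.5 in either direction. At 32 µM the *Nlrc5* interval lies wholly beyond the line on the lower side, from −1.51 to −1.01, and those of *Nlrp3*, *Aim2* and *Casp1* include 0.

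The part of the LPS response that remained at each dose can be read from the 8 genes that rose with LPS, as the rise over DMSO in percent of the rise in DMSO + LPS. At 32 µM it ran from 17.8% for *Nlrc5* to 93.6% for *Nlrp3*, with a median of 65.8%. For *Nlrc5* the 2 libraries gave 12.2% and 23.5%, and the mean was 82.6% at 3.2 µM and 54.1% at 10 µM. *Gsdmd* kept 40.1% at 32 µM (49.7% and 30.6%) after 80.9% at 10 µM, and *Nod1* kept 43.9% after 65.7%. *Nod2*, *Casp4* and *Ripk2* kept 62.2%, 69.4% and 71.6% at 32 µM, and *Casp1* kept 79.6%. *Nlrp3* showed no ordered course, with 91.1% at 3.2 µM, 87.0% at 10 µM and 93.6% at 32 µM. Whether these percentages differ between genes was not tested.

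**Figure D3:**
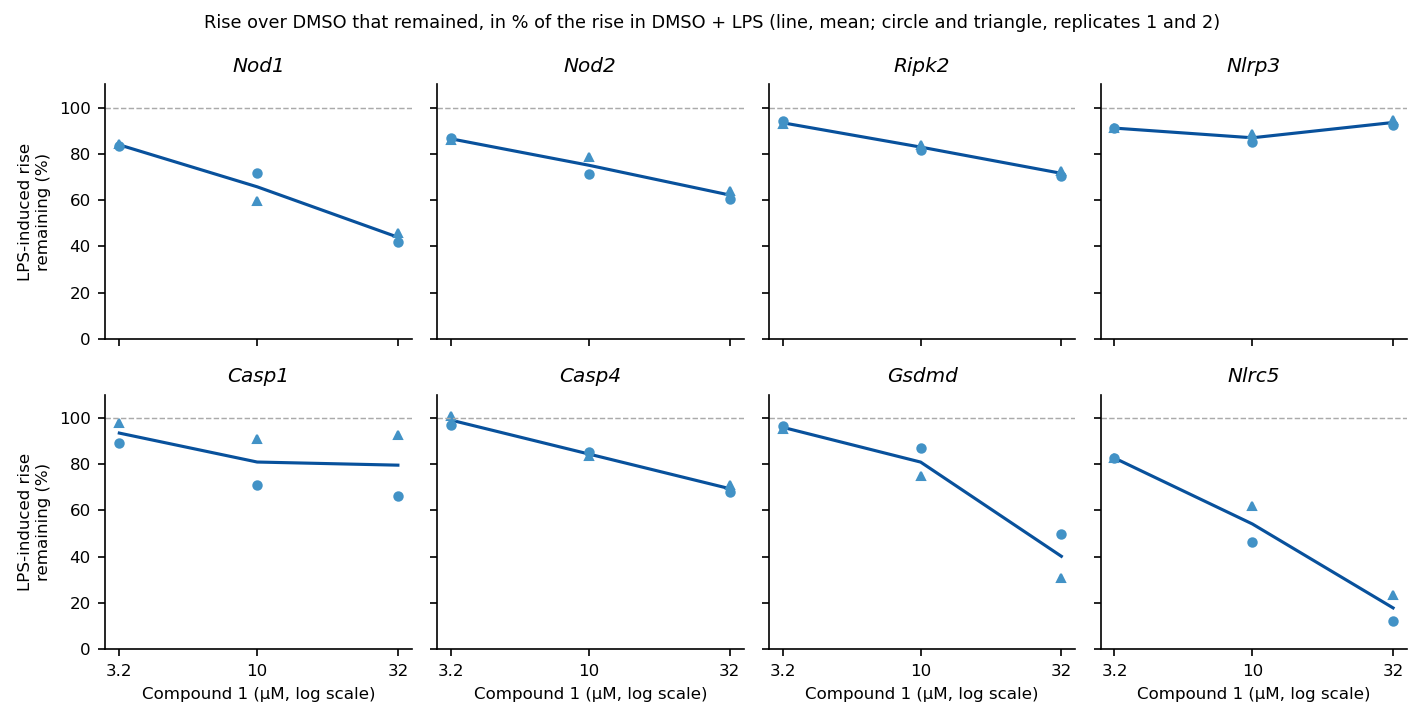
Rise over the DMSO mean that remained with compound 1, in percent of the rise of DMSO + LPS, against dose on a log axis, for the 8 genes that rose with LPS. Lines join the means, circles are replicate 1 and triangles replicate 2, and the dashed line marks 100%. *Nlrc5* runs from 82.6% at 3.2 µM to 17.8% at 32 µM, and *Nlrp3* stays between 87.0% and 93.6%.

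To place the cells given 32 µM against resting cells, they were compared with DMSO. Of the 9 genes, 6 were called higher (*Nod1*, *Nod2*, *Ripk2*, *Nlrp3*, *Casp1* and *Casp4*), where 27.1% of all features were called and 13.8% of all were called higher. *Casp4* was still 3.09 ± 0.050 above DMSO on the log2 scale (edgeR adjusted p = 5.55e-09) and *Nlrp3* 3.01 ± 0.052 (edgeR adjusted p = 7.05e-09). *Gsdmd* and *Nlrc5* were above DMSO by less than 1.5-fold, with log2 fold changes of 0.57 (edgeR adjusted p = 0.000336) and 0.52 (edgeR adjusted p = 0.00433). Both lay near the threshold: *Nlrc5* was called with the short-transcript score as a covariate (0.63) and with replicate 1 at 32 µM dropped (0.65), and *Gsdmd* with replicate 2 at 32 µM dropped (0.67). *Aim2* had a log2 fold change of 0.017 (edgeR adjusted p = 0.881), whose sign turned without TMM scaling (−0.19, adjusted p = 0.0554).

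**Figure D4:**
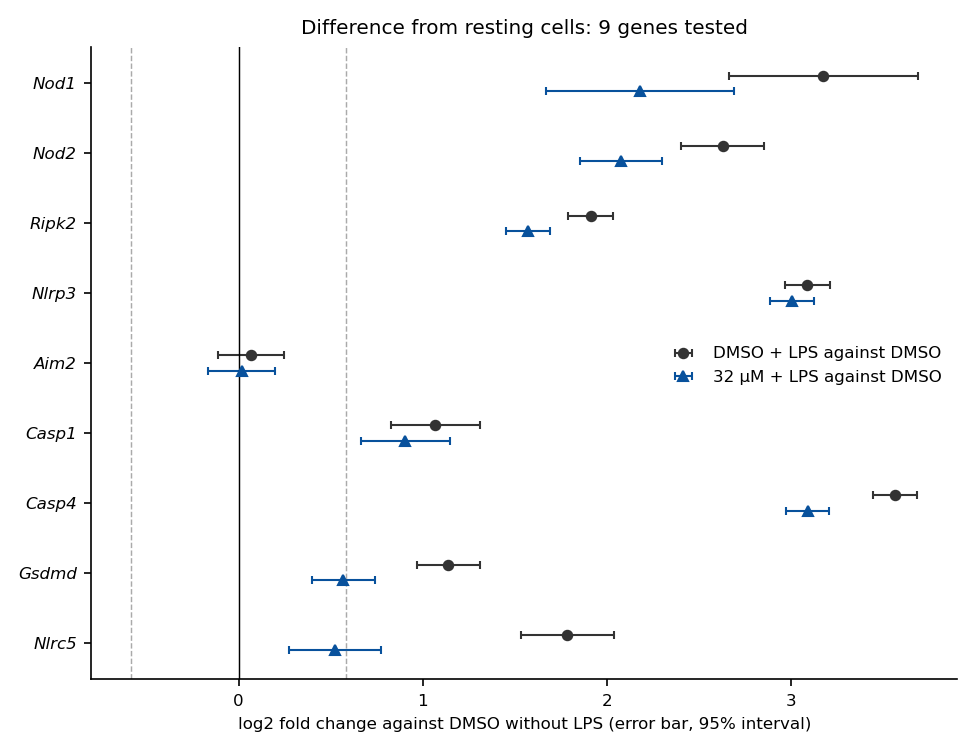
Log2 fold change against DMSO without LPS for DMSO + LPS (circles) and for 32 µM compound 1 with LPS (triangles), with 95% intervals from edgeR. Dashed lines mark a fold of 1.5 in either direction. *Nlrc5* moves from 1.79 to 0.52 and *Gsdmd* from 1.14 to 0.57, while *Nlrp3* is at 3.09 and 3.01.

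The surrounding pathway was read from a list of 66 genes in 6 roles that held none of the 10, of which 63 were in the matrix and 56 were tested. With LPS 25 of the 56 were called, 17 higher and 8 lower, where 28.1% of all features were called, 14.6% of all higher and 13.6% of all lower. At 32 µM 14 were called against DMSO + LPS, 13 lower and 1 higher, beside 4.17% of all features, 2.91% of all lower. At 10 µM 5 were called, all lower, beside 0.861% of all features, and at 3.2 µM none by edgeR, with 7 at an unadjusted p below 0.05, beside 4.23% of all features. The median log2 fold change of the 56 at 32 µM was −0.058. By role, 4 of 5 cytokine substrates and danger signals fell at 32 µM, as did 4 of 15 other NLR and DNA sensors, 2 of 9 caspases and death effectors, 1 of 12 inflammasome partners and regulators, 1 of 12 NOD signaling kinases, adaptors and inhibitors, and 1 of 3 peptide transporters, with 2.91% of all features called lower and no test made between roles. The 1 gene that rose was a death effector.

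Both interleukin substrates of caspase-1 fell. *Il1b*, encoding pro-interleukin-1β, was at 1.16 and 1.15 CPM in DMSO, 1529 and 1541 CPM in DMSO + LPS, 1492 and 1519 CPM at 3.2 µM, 886 and 829 CPM at 10 µM and 480 and 471 CPM at 32 µM. It fell by 0.84 ± 0.043 on the log2 scale at 10 µM (edgeR adjusted p = 0.000163) and by 1.69 ± 0.044 at 32 µM (edgeR adjusted p = 5.43e-07). *Il18*, encoding pro-interleukin-18, was at 5.76 and 5.73 CPM in DMSO, 9.75 and 10.3 CPM in DMSO + LPS and 3.60 and 3.96 CPM at 32 µM, where both libraries were below those of resting cells. *Il18* fell by 1.41 ± 0.084 on the log2 scale at 32 µM (edgeR adjusted p = 3.21e-05), and against DMSO its log2 fold change was −0.60 (edgeR adjusted p = 0.000512).

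Of the danger signals, *Il1a*, encoding interleukin-1α, had 1 count in each DMSO library and 402 and 393 CPM in DMSO + LPS. It was at 227 and 219 CPM at 10 µM and 91.4 and 87.7 CPM at 32 µM, where it fell by 2.15 ± 0.048 on the log2 scale (edgeR adjusted p = 4.07e-07). *Il33*, encoding interleukin-33, was scarce, with 0 counts in both DMSO libraries, 29 and 22 in DMSO + LPS and 1 and 1 at 32 µM. Its call at 32 µM (edgeR adjusted p = 0.0211) needed all 4 libraries, as the adjusted p was 0.118 to 0.158 with any 1 of them dropped. *Ifi204*, an interferon-inducible sensor of the HIN-200 family that also holds *Aim2*, fell from 184 and 186 CPM to 54.97 and 53.6 CPM at 32 µM, by 1.77 ± 0.072 on the log2 scale (edgeR adjusted p = 5.41e-06). *Ifi205*, another member of that family, had 2 and 1 counts in DMSO, 233 and 155 in DMSO + LPS and 87 and 79 at 32 µM (edgeR adjusted p = 0.00539), and its call ended with replicate 1 of DMSO + LPS dropped (adjusted p = 0.0535).

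Partners and effectors of cell death did not share 1 course. *Zbp1*, a nucleic acid sensor that can trigger necroptosis, went from 4.76 and 4.46 CPM in DMSO to 137 and 138 CPM in DMSO + LPS and 32.9 and 29.7 CPM at 32 µM, where it fell by 2.14 ± 0.068 on the log2 scale (edgeR adjusted p = 1.91e-06). *Gbp2*, a guanylate-binding protein of the class that coats bacteria and promotes caspase-11 activation, went from 1.87 and 1.60 CPM to 69.0 and 64.5 CPM with LPS and to 25.3 and 20.0 CPM at 32 µM, a log2 fold change of −1.56 ± 0.12 (edgeR adjusted p = 0.000106). At 10 µM *Il1a*, *Zbp1*, *Gbp2* and *Ifi204* were also called, with log2 fold changes of −0.83, −0.74, −0.66 and −0.60. The 10 µM call of *Gbp2* ended with either DMSO + LPS library dropped (adjusted p = 0.212 for replicate 1 and 0.134 for replicate 2) with replicate 2 at 10 µM dropped (adjusted p = 0.0722), with replicate 1 at 10 and 3.2 µM dropped together (adjusted p = 0.147) and in a fit of the 4 libraries alone (adjusted p = 0.0913). That of *Ifi204* ended with replicate 1 (adjusted p = 0.059) or replicate 2 (adjusted p = 0.0601) of DMSO + LPS dropped, with replicate 1 at 10 and 3.2 µM dropped together (adjusted p = 0.0984) and, by the fold threshold, without TMM scaling (−0.58).

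*Gsdme*, a gasdermin cleaved by caspase-3, was the gene that rose. It went from 9.40 and 10.3 CPM in DMSO to 4.49 and 3.92 CPM in DMSO + LPS and 6.15 and 6.88 CPM at 32 µM, a log2 fold change of 0.63 ± 0.11 against DMSO + LPS (edgeR adjusted p = 0.0107). That call ended with replicate 2 of DMSO + LPS dropped (adjusted p = 0.0943), with replicate 2 at 32 µM dropped (adjusted p = 0.0709) and in a fit of the 4 libraries alone (adjusted p = 0.0557). *Casp8*, the initiator caspase of death receptors, rose with LPS from 70.5 and 74.2 CPM to 140 and 139 CPM and was at 105 and 104 CPM at 32 µM, a log2 fold change of −0.42 (edgeR adjusted p = 0.000459) that was under 1.5-fold. *Ninj1*, which ruptures the membrane of dying cells, rose with LPS by 1.22 ± 0.098 on the log2 scale (edgeR adjusted p = 2.04e-05) and had a log2 fold change of 0.16 at 32 µM (edgeR adjusted p = 0.411). *Nek7*, the NLRP3 partner kinase, fell with LPS from 95.7 and 102.6 CPM to 54.3 and 51.6 CPM and was at 50.05 and 57.7 CPM at 32 µM, a log2 fold change of 0.024 (edgeR adjusted p = 0.936). *Txnip*, a redox protein described as an NLRP3 ligand, had log2 fold changes of −0.47 with LPS (edgeR adjusted p = 0.00421) and −0.25 at 32 µM (edgeR adjusted p = 0.177). The LPS value passed the fold threshold without TMM scaling (−0.68) and with the short-transcript score (−0.60). *Xiap*, a ubiquitin ligase of the NOD2 pathway, was at 138 and 125 CPM in DMSO + LPS and 126 and 152 CPM at 32 µM (edgeR adjusted p = 0.85). Replicate 1 at 32 µM lay between the DMSO + LPS libraries and replicate 2 above both.

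**Figure D5:**
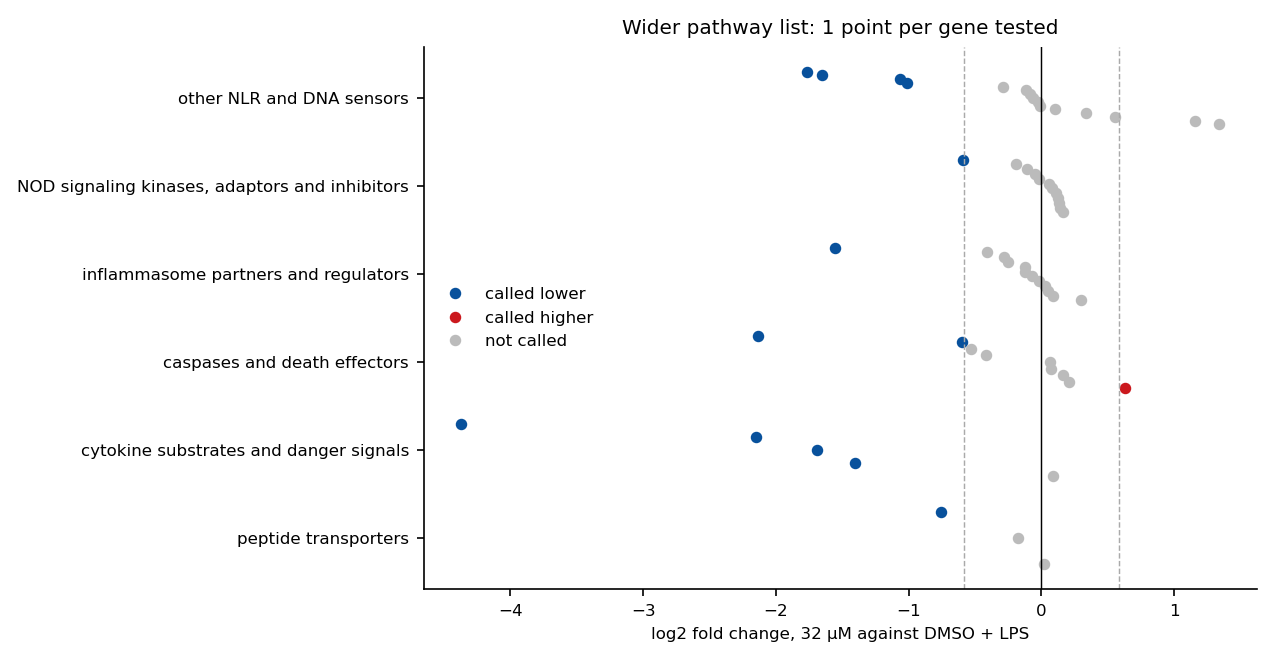
Log2 fold change at 32 µM against DMSO + LPS of the 56 genes tested from the wider list, 1 point per gene, by role. Blue points were called lower, red higher and grey not called, and dashed lines mark a fold of 1.5. The 13 genes called lower include 4 of the 5 cytokine substrates and danger signals, and the point farthest to the left, *Il33*, rests on 1 count in each library at 32 µM.

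For each of the 8 genes with a mean of at least 5 CPM, the genes of most similar pattern were sought by Pearson's r over the 10 libraries among 9562 such genes. These r are descriptions, since the DMSO libraries stand apart from the LPS libraries in most of the 8 genes and so set much of their size. The nearest to *Nod2* were *Ccl22*, a chemokine (r = 0.9982), and *Nos2*, the inducible nitric oxide synthase (r = 0.9981). *Casp4* was nearest to *Tnfaip3*, the NF-κB inhibitor A20 (r = 0.9997), and *Ripk2* to *Car13*, a carbonic anhydrase (r = 0.9995). *Nlrp3* was nearest to *Stx11*, a syntaxin (r = 0.9992), and *Casp1* to *Msn*, encoding moesin (r = 0.9979). *Gsdmd* was nearest to *Ifi211*, a HIN-200 family gene (r = 0.9942), and *Nlrc5* to *Tdrd7*, an interferon-inducible tudor domain gene (r = 0.9971), and to *Znfx1* (r = 0.9948). *Aim2*, whose libraries lay between 75.5 and 88.4 CPM, was nearest to *Mtm1*, a phosphoinositide phosphatase, at r = 0.9362. Between the genes themselves, r over the same libraries was 0.998 for *Ripk2* and *Casp4*, 0.942 for *Gsdmd* and *Nlrc5* and 0.766 for *Nlrp3* and *Nlrc5*.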

How the data were processed

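RNA was taken from RAW264.7 cells in 5 conditions of 2 libraries each. Libraries were poly(A)-selected, made with a directional kit and sequenced as paired reads. The authors deposited raw counts per Ensembl gene for all 10 libraries, and the submitters' processing notes name Trimmomatic, FastQC, STAR, DESeq2 and the mm10 build. The counting tool, its strand setting and its treatment of reads that match several genes were not given in the sources used here. Symbols came from GENCODE M21 (GRCm38) for 42548 of 43432 identifiers, and 19292 features had 0 counts in every library.

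Here, features were filtered with edgeR's filterByExpr at a minimum count of 10, scaled by TMM and fitted over all 10 libraries with edgeR's quasi-likelihood test (edgeR 4.0.16, limma 3.58.1, R 4.3.3), with a common biological coefficient of variation of 0.128 and 5 residual degrees of freedom. The p-values were adjusted by Benjamini-Hochberg over all 14172 features, and a gene was called at a fold of at least 1.5 (0.586 on the log2 scale) with an adjusted p below 0.05. Intervals are 95% and come from the same fit. DESeq2 1.42.0 served as an alternative. With 2 libraries against 2, an exact permutation test of 1 gene cannot go below p = 0.333, so none is given. The fit was tested on simulated data for the comparison of 32 µM with DMSO + LPS (13662 features). A changed gene was recovered at an adjusted p below 0.05 with the right sign, and no fold threshold was applied. With at least 50 expected counts, 44 of 48 genes changed 2-fold and 28 of 48 changed 1.5-fold were recovered. Of 11019 unchanged ones, 4 had an adjusted p below 0.05. With fewer expected counts, 1 of 21 genes changed 2-fold was recovered. The simulated spread followed the fitted trend with level, not each gene's own spread.

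The 10 genes and the wider list were chosen with earlier results of these data known. Genes of the list were named from DMSO + LPS against DMSO and from each dose against DMSO + LPS. In each, they were at most the 5 with the largest called log2 fold change in either direction and no overlap between the libraries compared. Lack of overlap was thus a condition of being named. *Il1b*, *Il18*, *Nek7*, *Gsdme*, *Ninj1*, *Casp8*, *Txnip* and *Xiap* were always named. *Gbp5*, *Pydc3* and *Pydc4* of the list matched no identifier. Alternatives covered scaling, filters, the test, the fold threshold, a score for short transcripts, the replicate block and each library left out. Replicate numbers were not taken as pairs, since the labels do not say what a number shares.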

Additional observations from a re-analysis of the deposited data

How the results depend on the processing

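With 2 libraries a condition, genes of few counts such as *Nod1* are the least certain. Of the 8 genes that rose with LPS, all 8 were called in every alternative run except that *Nod1* could not be tested under the filter on mean level. The count of called genes moved by over 1.5 times under these settings, besides single libraries left out: at 32 µM it was 1 with a mean of at least 5 CPM required and 1 with a 2-fold threshold; at 10 µM it was 1 with no filter on low counts; between 32 and 10 µM it was 0 with a 2-fold threshold and 0 in the fit of the 4 libraries compared alone. In the wider list at 10 µM it was 8 with the short-transcript score as a covariate, 0 with a 2-fold threshold, and 3 without replicate 1 at 10 and 3.2 µM together, a setting chosen after seeing the data. Smaller shifts were 3 called at 32 µM with no filter on low counts (*Gsdmd* added) and, for 32 µM + LPS against DMSO, 7 with the short-transcript score (*Nlrc5* added), 5 with a 2-fold threshold (*Casp1* lost) and 5 with the mean of at least 5 CPM (*Nod1* not tested). The cause was not tested, other than the construction of the filter and the threshold.

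Leaving out 1 library at a time gave 8 called genes with LPS each time, 1 to 2 at 32 µM, 0 to 1 at 10 µM, 0 at 3.2 µM, 6 to 7 for 32 µM + LPS against DMSO, 0 to 1 between 32 and 10 µM and 0 between 10 and 3.2 µM. Without replicate 2 at 10 µM the 1 gene called between 32 and 10 µM was *Pycard*. It did not pass the filter in the full data, and in that fit the 10 µM arm was the single library with 33 *Pycard* and 1777 epithelial marker counts, so that call is no result, and *Nlrc5* was not called. For the wider list the ranges were 23 to 27 with LPS, 11 to 12 at 32 µM, 3 to 6 at 10 µM and 0 at 3.2 µM.

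Values near 0 changed sign. For 32 µM + LPS against DMSO *Aim2* was at −0.19 without TMM scaling and between −0.11 and 0.13 with 1 library left out. *Aim2* was at −0.14 with LPS without TMM scaling, between −0.17 and 0.060 at 32 µM with 1 library left out (0.060 without replicate 1 of that dose), and at 3.2 µM at 0.012 with the short-transcript score and between −0.051 and 0.00024 with 1 library left out. At 3.2 µM *Casp1* was at 0.014 with the short-transcript score, and *Casp4* between −0.041 and 0.015 with 1 library left out, at 0.015 both without replicate 1 of that dose and without replicate 1 at 10 and 3.2 µM together. *Xiap* with LPS was at −0.15 without TMM scaling, between −0.061 and 0.17 with 1 library left out (−0.061 without replicate 1 of DMSO and −0.015 without replicate 1 of DMSO + LPS), and at 32 µM between −0.063 and 0.21. *Nek7* at 32 µM was at −0.0068 with the short-transcript score, −0.014 without replicate 2 of DMSO + LPS and between −0.083 and 0.12 over the libraries left out.

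With the replicate number as a block, the counts called were 8 with LPS, 2 at 32 µM, 0 at 10 µM, 0 at 3.2 µM, 6 for 32 µM + LPS against DMSO, 1 between 32 and 10 µM and 0 between 10 and 3.2 µM, as in the fit without it. Deviations of same-numbered libraries correlated between −0.169 and 0.573, and every pair that held DMSO + LPS was below 0.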
